A study of Homo sapiens with 9 samples.

Results

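The genes described here encode SNAREs, the membrane proteins that pull a transport vesicle and its target membrane together until they fuse. They were taken as the rows of the deposited expression table whose pathway annotation holds the entry "SNARE interactions in vesicular transport", which gave 33 of 16772 genes. The cells were DU145, an established line of human prostate cancer cells labelled as wild type, kept for 6 days with fresh medium every day. One group of 3 libraries received H93 at 20 µM, a compound that the series title describes as targeted at UHRF1. A second group of 3 received SAHA (vorinostat, an inhibitor of histone deacetylases) at 500 nM, and the control group of 3 received only the solvent DMSO, in which both compounds were dissolved. The dose labels are read here as micromolar and nanomolar; each compound was given at 1 dose, and the doses differ. All 9 libraries came from the same line, and the labels do not say that they were separate cultures, so the p-values cover only how much these 9 libraries vary, and that variation may be technical.

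A SNARE carries a coiled stretch that zips together with those of its partners. A working complex joins a stretch from each of the Qa, Qb, Qc and R classes, named after the amino acid at its centre: the Qa proteins are the syntaxins of the target membrane, Qb and Qc are their helpers, the SNAP proteins carry a Qb and a Qc stretch in a single chain (Qbc), and the R proteins, mostly called VAMPs, usually sit on the vesicle. Different sets work at the endoplasmic reticulum (ER), the Golgi, endosomes, lysosomes, autophagosomes and the plasma membrane. In secretory epithelial cells they carry newly made proteins to the surface and endocytosed material to lysosomes.

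Values are FPKM (mapped fragments scaled for transcript length and library size), which allow levels to be compared between genes. Of the 33 genes, 29 reached an FPKM of 1 in at least 3 libraries and were tested. All differences were computed as log2(FPKM + 1), so that a weakly expressed gene appears to change less than its FPKM did. A gene "rose" or "fell" where limma gave an adjusted p under 0.05, with Benjamini-Hochberg adjustment over the 11525 genes tested. The FPKM sums of the libraries ranged from 348656 to 355741, and read steps among low values put their relative depths between 0.875 and 1.0; absolute depth is unknown. Epithelial keratins were high (KRT8 at 663.6 to 736.6 FPKM and KRT18 at 653.3 to 713.6), whereas the leukocyte gene PTPRC did not exceed 0.0179. The 4 endothelial markers all stayed under 1, and 5 fibroblast markers summed to 3.67 to 4.41 FPKM in H93 libraries, 3.57 to 6.30 in SAHA libraries and 2.30 to 3.21 in DMSO libraries. The 5 epithelial markers summed to 1827 to 1864 FPKM in H93 libraries, 1751 to 1827 in SAHA libraries and 1583 to 1623 in DMSO libraries, but its members moved apart. KRT19 averaged 420.4 ± 2.95 FPKM with H93, 326.5 ± 10.8 with SAHA and 169.4 ± 1.59 with DMSO (SD, n = 3 each) and carried the higher sum. EPCAM fell, at 30.4 ± 1.08 FPKM with H93, 37.8 ± 1.86 with SAHA and 67.1 ± 0.918 with DMSO, and so did the cadherin gene CDH1, at 4.34 ± 0.334, 5.09 ± 0.199 and 13.3 ± 0.0427 FPKM with H93, SAHA and DMSO (limma adjusted p of at most 3.48e-09 for each). The part of these shifts in the results was not tested.

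The SNARE genes were, as a group, more strongly expressed after either compound. Their summed FPKM was 531.4 ± 5.78 in H93 libraries, 489.5 ± 2.92 in SAHA libraries and 433.2 ± 6.01 in DMSO libraries (SD, n = 3 each), and the ranges of the groups did not overlap. Abundant genes weigh most in this sum. YKT6 alone averaged 94.0 FPKM with H93, 83.0 with SAHA and 66.5 with DMSO. With H93, 21 of the 29 tested genes changed relative to DMSO, a share close to the 69.8% of all tested genes that did. Of the 21, 19 rose and 2 fell, while among all tested genes 34.9% rose and 35.0% fell. After SAHA 18 changed relative to DMSO, as did 58.8% of all genes; 15 rose and 3 fell, where 27.4% of all genes rose and 31.4% fell. The libraries of the compared groups did not overlap for 22 of the 29 genes with H93 and 19 with SAHA, against 73.2% and 64.1% of all genes. The median log2 difference of the 29 genes was 0.16 for H93, against 0.00 over all tested genes, and 0.10 for SAHA, against -0.02 over all tested genes. No SNARE gene changed 2-fold on this scale in limma, a size that 2.28% of all genes passed with H93 and 1.12% with SAHA. At an unadjusted p under 0.05 in limma, 21 SNARE genes passed with H93 and 18 with SAHA, against 71.9% and 63.2% of all genes. Both comparisons use the same DMSO libraries. In RNA from a whole culture, a change in the mix of cells and a change of RNA per cell cannot be told apart.

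**Figure D1:**
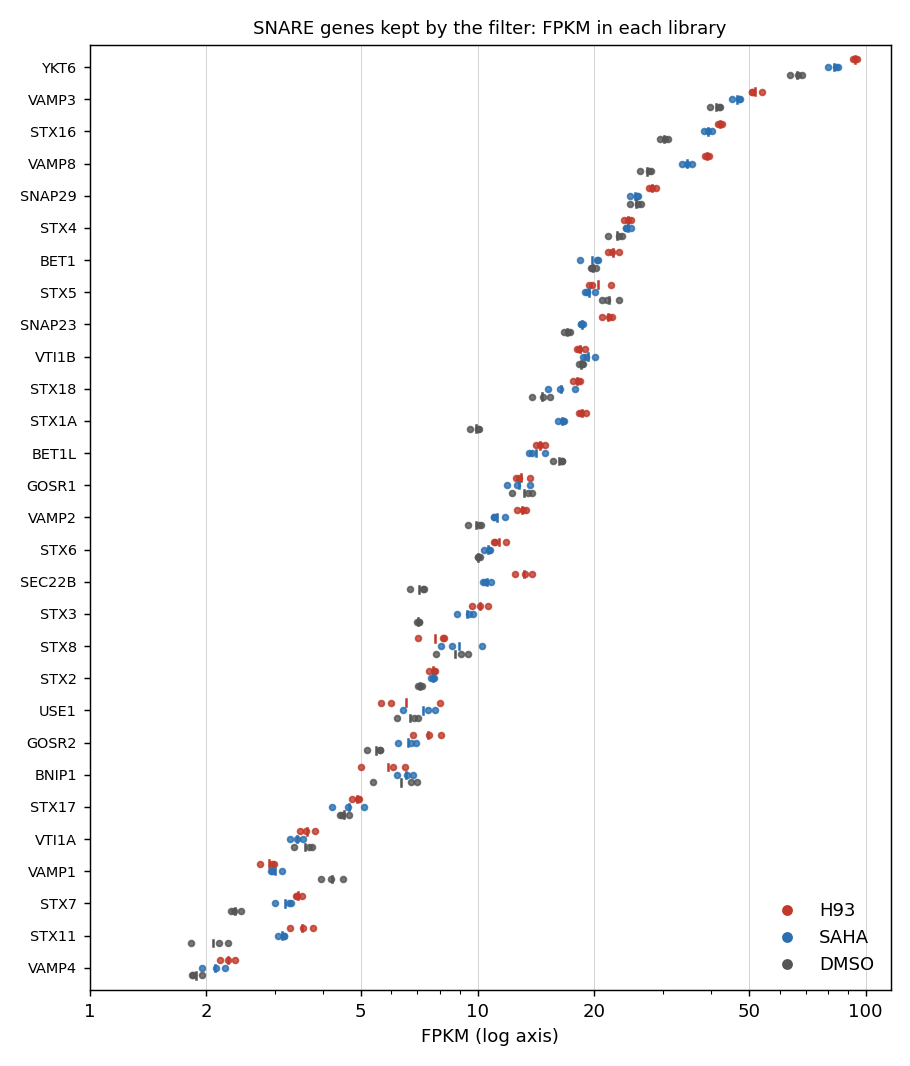
FPKM on a log axis of the 29 tested SNARE genes in each of the 3 H93, 3 SAHA and 3 DMSO libraries (points), with a tick at each group's mean. YKT6 leads in every group, and STX1A and SEC22B show the widest distance between H93 and DMSO libraries.

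The strongest single rise was that of STX1A, which encodes syntaxin 1A, a Qa SNARE of the plasma membrane best known from regulated secretion in neurons and endocrine cells. It had 18.5, 19.0 and 18.3 FPKM in H93 libraries, 16.1, 16.6 and 16.7 in SAHA libraries and 10.1, 10.0 and 9.57 in DMSO libraries. Every treated library lay above every control library, and the H93 libraries lay above the SAHA libraries. The mean FPKM was 1.88 times the DMSO level with H93 (log2 difference 0.85, SE 0.0330, limma adjusted p = 4.49e-10) and 1.67 times it with SAHA (0.68, SE 0.0330, limma adjusted p = 6.33e-09). In the order of the 33 levels STX1A stood at place 10 with H93 and 11 with SAHA, against place 16 with DMSO. The gene lies on chromosome 7 from 73699206 to 73719672 (GRCh38, GENCODE release 29, protein-coding), and 5956 bases of its span overlap BUD23 on the opposite strand. The sources used here do not say whether reads were assigned by strand. BUD23 stood at 93.3 ± 1.51 FPKM with H93, 101.7 ± 4.09 with SAHA and 99.2 ± 1.77 with DMSO (SD, n = 3 each). BUD23 fell with H93 (log2 difference -0.09, limma adjusted p = 0.0182) and did not pass with SAHA (0.04, limma adjusted p = 0.312).

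SEC22B, the R SNARE of vesicles that shuttle between ER and Golgi, came next. It had 13.2, 13.8 and 12.5 FPKM in H93 libraries, 10.9, 10.5 and 10.3 in SAHA libraries and 7.26, 7.23 and 6.71 in DMSO libraries. The 3 groups did not overlap, with H93 highest and DMSO lowest. The mean was 1.87 times the DMSO level with H93 (log2 difference 0.82, SE 0.0441, limma adjusted p = 7.29e-09) and 1.49 times it with SAHA (0.52, SE 0.0441, limma adjusted p = 8.45e-07). SEC22B lies on chromosome 1 from 120150898 to 120176515, and the same annotation lists the pseudogenes SEC22B2, SEC22B3 and SEC22B4P on that chromosome. How the authors' counting divided reads among such copies is not given in the sources used here, so the level of SEC22B is uncertain.

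A pair of close relatives went in opposite directions. VAMP2 and VAMP1, known from neurons as synaptobrevin 2 and 1, are R SNAREs of secretory vesicles. VAMP2 had 13.1, 13.3 and 12.6 FPKM in H93 libraries, 11.76, 11.01 and 10.99 in SAHA libraries and 10.1, 9.44 and 10.2 in DMSO libraries. VAMP1 had 2.99, 2.75 and 2.95 FPKM in H93 libraries, 2.96, 2.94 and 3.14 in SAHA libraries and 4.51, 4.19 and 3.96 in DMSO libraries. All treated libraries were above the controls for VAMP2 and below them for VAMP1. VAMP2 rose with H93 (log2 difference 0.36, limma adjusted p = 6.19e-06) and with SAHA (0.17, limma adjusted p = 0.00387). VAMP1 fell with H93 (log2 difference -0.42, limma adjusted p = 1.54e-05) and with SAHA (-0.38, limma adjusted p = 6.28e-05). The ratio of VAMP2 to VAMP1 in FPKM was therefore 4.28 to 4.85 in H93 libraries, 3.50 to 3.97 in SAHA libraries and 2.23 to 2.58 in DMSO libraries. Of the span of VAMP1 on chromosome 12, 4281 bases overlap TAPBPL on the opposite strand, which did not exceed 0.377 FPKM in any library. VAMP2 (chromosome 17, 8159149 to 8163546) shares 3827 bases of its span with the protein-coding model AC129492.3 on the same strand, so its level is uncertain.

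The 250 bases before the start of these genes are shown for the pair with the largest rises and for the pair that parted, as listed by RefSeq on GRCh38.p14 with the most upstream start taken where several are listed. All 4 genes lie on the minus strand, and the sequences run 5′ to 3′ along the gene. The windows are chr7:73719670-73719919 for STX1A, chr1:120176521-120176770 for SEC22B, chr17:8162949-8163198 for VAMP2 and chr12:6470678-6470927 for VAMP1. Against the GENCODE models, whose first starts can differ, the windows of VAMP2 and VAMP1 lie inside the gene. Capitals mark each GC box, searched as GGGCGG on both strands with overlapping matches counted.
STX1A: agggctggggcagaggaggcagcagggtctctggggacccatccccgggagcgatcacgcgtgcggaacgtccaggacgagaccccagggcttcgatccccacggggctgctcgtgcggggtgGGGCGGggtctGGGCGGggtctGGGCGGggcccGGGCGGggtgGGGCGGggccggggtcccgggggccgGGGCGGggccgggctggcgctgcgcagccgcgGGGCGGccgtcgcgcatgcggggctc
SEC22B: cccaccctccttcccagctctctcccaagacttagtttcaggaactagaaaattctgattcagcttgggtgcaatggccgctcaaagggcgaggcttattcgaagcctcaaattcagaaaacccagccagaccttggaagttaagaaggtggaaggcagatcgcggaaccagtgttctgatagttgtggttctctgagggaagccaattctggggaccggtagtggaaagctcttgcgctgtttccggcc
VAMP2: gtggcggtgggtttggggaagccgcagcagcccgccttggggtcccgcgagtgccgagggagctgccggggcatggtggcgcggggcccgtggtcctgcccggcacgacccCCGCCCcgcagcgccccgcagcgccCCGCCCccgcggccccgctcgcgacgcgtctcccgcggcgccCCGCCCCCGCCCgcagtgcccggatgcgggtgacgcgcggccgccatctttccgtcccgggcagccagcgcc
VAMP1: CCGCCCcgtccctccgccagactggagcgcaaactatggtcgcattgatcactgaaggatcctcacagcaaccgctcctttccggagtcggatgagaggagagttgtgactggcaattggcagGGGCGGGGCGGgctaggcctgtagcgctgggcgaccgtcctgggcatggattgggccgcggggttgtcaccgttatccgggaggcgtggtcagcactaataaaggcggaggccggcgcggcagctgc
The windows of STX1A, VAMP2 and VAMP1 held 7, 4 and 3 GC boxes, and that of SEC22B held 0. The windows of STX1A and SEC22B had 80.8% and 52.0% G or C and 31 and 8 CpG pairs. Those of VAMP2 and VAMP1 had 40 and 22 CpG pairs. Over the 29 SNARE genes with a listed promoter, the median number of CpG pairs in this window was 21, against 10 over 27305 listed genes. These 29 are not the same as the 29 tested genes. They include the untested STX19, VAMP5 and VAMP7 and lack the tested BET1L, STX17 and USE1. Those 27305 genes were not limited to expressed ones, so this and the motif shares below compare sets not matched for expression. At least 1 GC box was found in 17 of these 29 windows (58.6%) and in 42.2% of all windows. The E-box CACGTG was found in 6 of the 29 (BNIP1, GOSR2, SNAP29, STX18, STX2 and STX6; 20.7%) and in 6.46% of all windows. The AP-1 motif TGACTCA and the cyclic AMP element TGACGTCA were found in 0 of the 29, and in 4.15% and 1.75% of all windows. The ETS motif CCGGAAGT was found in 2 of the 29 (VAMP3 and YKT6) and in 3.64% of all windows. All were searched on both strands. These motifs were chosen with the expression values known, and a match is a run of letters, not a bound site.

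**Figure D2:**
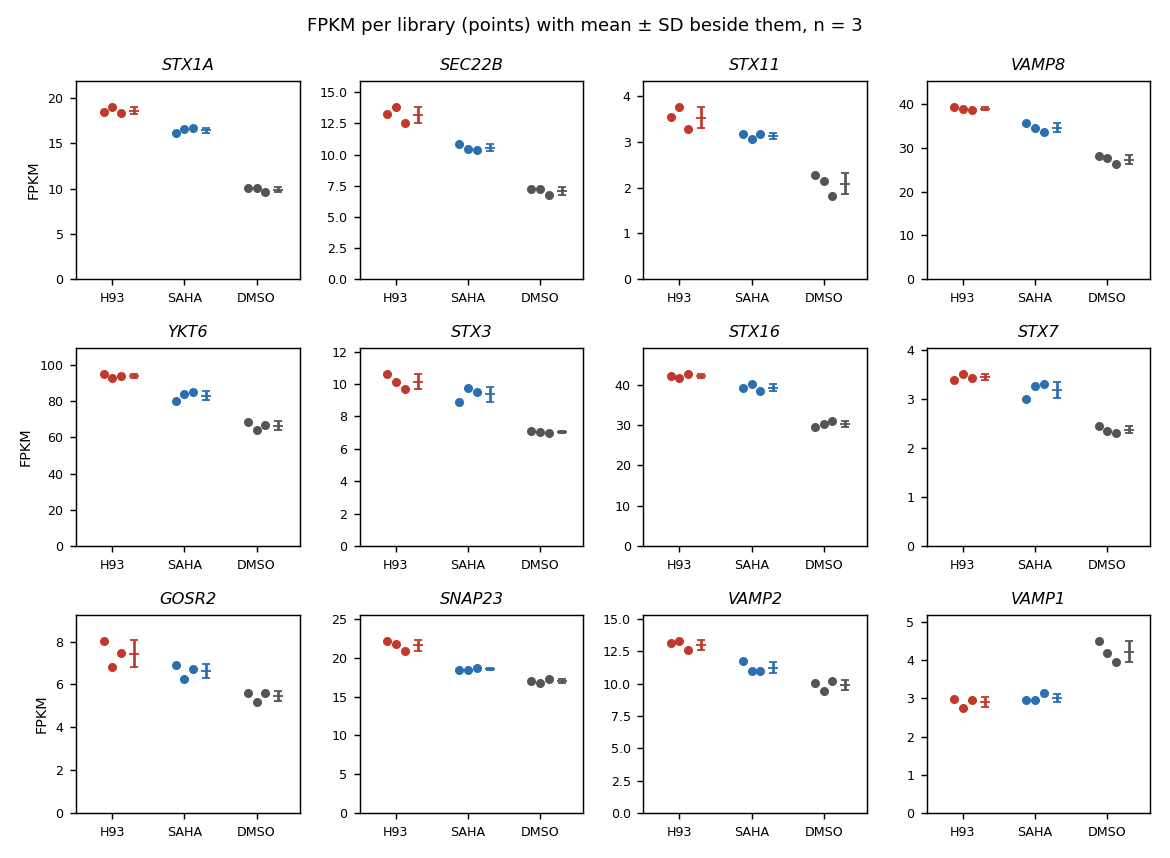
FPKM in each library (points, H93, SAHA and DMSO from left to right) with the mean ± SD beside them (n = 3), for 12 SNARE genes, each on its own axis from 0. In 11 panels the treated libraries lie above all DMSO libraries, and in the panel of VAMP1 they lie below.

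At the plasma membrane, every tested member of the exocytic set changed. The set as listed from textbook knowledge holds 10 tested genes (STX1A, STX2, STX3, STX4, STX11, SNAP23, VAMP1, VAMP2, VAMP3 and VAMP8), and 9 of them rose and 1 fell, with H93 as with SAHA. Of all genes 34.9% rose and 35.0% fell with H93, and 27.4% rose and 31.4% fell with SAHA. STX3, a Qa SNARE of the apical surface of epithelial cells, had 10.6, 10.1 and 9.70 FPKM in H93 libraries, 8.86, 9.74 and 9.48 in SAHA libraries and 7.08, 7.06 and 6.98 in DMSO libraries. Its log2 difference was 0.47 with H93 (limma adjusted p = 9.75e-07) and 0.37 with SAHA (limma adjusted p = 1.67e-05), with no overlap between treated and control libraries. STX11, known for the release of lytic granules by killer lymphocytes, was a weakly expressed gene here, at 3.54, 3.77 and 3.29 FPKM in H93 libraries, 3.18, 3.07 and 3.17 in SAHA libraries and 2.27, 2.16 and 1.82 in DMSO libraries. STX11 rose by 0.56 with H93 (limma adjusted p = 5.44e-06) and by 0.43 with SAHA (limma adjusted p = 9.01e-05) on the log2 scale. Beside it PTPRC stayed near 0, and the 3 leukocyte markers in the table summed to 0.872 to 1.12 FPKM in H93 libraries, 0.669 to 1.18 in SAHA libraries and 0.622 to 0.665 in DMSO libraries, most of it CD14. The part of these markers in the STX11 values was not tested.

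SNAP23 is the Qbc SNARE that serves the plasma membrane outside neurons. It had 22.2, 21.8 and 20.9 FPKM in H93 libraries, 18.4, 18.5 and 18.7 in SAHA libraries and 17.1, 16.7 and 17.3 in DMSO libraries, and the 3 groups did not overlap. SNAP23 rose by 0.33 with H93 (limma adjusted p = 1.14e-06) and by 0.12 with SAHA (limma adjusted p = 0.00593). Its span overlaps the model AC018362.3 (47962 bases) and LRRC57 (7537 bases) on the opposite strand, and LRRC57 averaged 5.76 ± 0.143 FPKM with H93, 6.08 ± 0.332 with SAHA and 5.19 ± 0.154 with DMSO (SD, n = 3 each); its part in the SNAP23 values was not tested.

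The R SNARE genes VAMP3 and VAMP8 had the highest levels of this set. VAMP3 (cellubrevin, an R SNARE of recycling endosomes) had 51.0, 54.1 and 50.8 FPKM in H93 libraries, 47.2, 47.3 and 45.1 in SAHA libraries and 39.8, 42.1 and 41.9 in DMSO libraries. VAMP8 (endobrevin, an R SNARE of secretory granules, late endosomes and autophagosome fusion) had 39.4, 39.0 and 38.6 FPKM in H93 libraries, 35.7, 34.6 and 33.6 in SAHA libraries and 28.1, 27.6 and 26.2 in DMSO libraries. For both genes the 3 groups were fully apart, in the order H93, SAHA, DMSO. VAMP3 rose by 0.33 with H93 (limma adjusted p = 2.30e-06) and by 0.17 with SAHA (limma adjusted p = 0.000809). VAMP8 rose by 0.50 with H93 (limma adjusted p = 3.48e-08) and by 0.33 with SAHA (limma adjusted p = 2.55e-06).

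STX4 and STX2, broadly expressed Qa SNAREs of the plasma membrane, changed least in this set. STX4 averaged 24.4 ± 0.536 FPKM with H93, 24.4 ± 0.420 with SAHA and 22.8 ± 1.01 with DMSO, and STX2 7.66 ± 0.158, 7.67 ± 0.0685 and 7.09 ± 0.0910 in the same order (SD, n = 3 each). These calls depended on single libraries. For H93 against DMSO, the limma adjusted p of STX4 (0.0325) became 0.160 without DMSO replicate 3, 0.108 without H93 replicate 1 and 0.0708 without H93 replicate 2. That of STX2 (0.0287) became 0.0638 without DMSO replicate 1, 0.0825 without DMSO replicate 3, 0.0840 without H93 replicate 1 and 0.0726 without H93 replicate 3. For SAHA against DMSO, the limma adjusted p of STX4 (0.0368) became 0.172 without DMSO replicate 3, 0.109, 0.0555 and 0.0534 without SAHA replicate 1, 2 or 3, 0.0511 with the 6 compared libraries alone and 0.0693 with a fixed FPKM sum per library. That of STX2 (0.0299) became 0.0668 without DMSO replicate 1, 0.0860 without DMSO replicate 3, 0.0716 and 0.0626 without SAHA replicate 1 or 2, and 0.0576 with a fixed FPKM sum. The ratio of STX1A to STX4 in FPKM was 0.743 to 0.780 in H93 libraries, 0.649 to 0.691 in SAHA libraries and 0.426 to 0.441 in DMSO libraries.

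Between ER and Golgi the changes were uneven. Of 10 tested genes of this compartment 5 rose and 1 fell with H93, and 4 rose and 2 fell with SAHA. The 6 called with each compound are a share near or below the 69.8% of all genes called with H93 and near the 58.8% called with SAHA. YKT6, an R SNARE anchored by lipids that works at the Golgi and on autophagosomes, was the most abundant SNARE gene in every group. YKT6 had 95.1, 92.96 and 93.9 FPKM in H93 libraries, 80.1, 84.0 and 84.8 in SAHA libraries and 68.7, 63.8 and 66.9 in DMSO libraries. The 3 groups did not overlap, and the log2 difference was 0.49 with H93 (limma adjusted p = 2.35e-08) and 0.32 with SAHA (limma adjusted p = 2.58e-06). GOSR2 (membrin, a Qb SNARE of ER-to-Golgi transport) had 8.04, 6.80 and 7.48 FPKM in H93 libraries, 6.92, 6.25 and 6.72 in SAHA libraries and 5.60, 5.18 and 5.61 in DMSO libraries. GOSR2 rose by 0.38 with H93 (limma adjusted p = 7.27e-05) and by 0.24 with SAHA (limma adjusted p = 0.00351), all treated libraries being above the controls. Nearly all of its span (52392 of 52450 bases) overlaps a second protein-coding gene model on the same strand, AC005670.2, so its level is uncertain.

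STX5, BET1, BET1L and GOSR1 of these Golgi complexes did not rise with both compounds. STX5, the Qa SNARE with which SEC22B and YKT6 work there, averaged 20.4 ± 1.44 FPKM with H93, 19.4 ± 0.624 with SAHA and 21.9 ± 1.13 with DMSO (SD, n = 3 each). It did not pass with H93 (log2 difference -0.09, limma adjusted p = 0.106; 0.0115 without H93 replicate 1) and fell by 0.16 with SAHA (limma adjusted p = 0.0124; 0.0588 without DMSO replicate 2). SEC22B thus stood at 0.600 to 0.713 times the FPKM of STX5 in H93 libraries, 0.515 to 0.567 times it in SAHA libraries and 0.311 to 0.347 times it in DMSO libraries. The Qc SNAREs BET1 and BET1L, which serve ER-to-Golgi transport and transport within the Golgi, again parted. BET1 had 22.2, 21.6 and 23.1 FPKM in H93 libraries, 18.3, 20.5 and 20.3 in SAHA libraries and 19.6, 19.8 and 20.2 in DMSO libraries. It rose with H93 (log2 difference 0.16, limma adjusted p = 0.00464), while the SAHA libraries overlapped the controls (-0.01, limma adjusted p = 0.784). BET1L, which overlaps SCGB1C1 and other models on the opposite strand, fell with H93, at 14.5 ± 0.368 FPKM, and with SAHA, at 14.1 ± 0.735, against 16.2 ± 0.474 with DMSO (SD, n = 3 each; limma adjusted p = 0.00512 and 0.00154). The Qb SNARE GOSR1 averaged 12.97 ± 0.573 FPKM with H93, 12.8 ± 0.891 with SAHA and 13.2 ± 0.798 with DMSO and passed in neither comparison (limma adjusted p = 0.721 and 0.474).

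In the complex that receives vesicles going back to the ER, STX18 (Qa) rose and its helpers BNIP1 (Qb) and USE1 (Qc) did not pass. STX18 averaged 18.0 ± 0.384 FPKM with H93, 16.4 ± 1.31 with SAHA and 14.7 ± 0.772 with DMSO (SD, n = 3 each). Its rise of 0.28 with H93 had a limma adjusted p of 0.000358. Its rise of 0.15 with SAHA (limma adjusted p = 0.0225) had overlapping libraries and was lost without DMSO replicate 3 (0.0973), without SAHA replicate 3 (0.102) and with no filter on low values (0.0514). BNIP1 averaged 5.86 ± 0.760, 6.54 ± 0.324 and 6.35 ± 0.865 FPKM with H93, SAHA and DMSO (limma adjusted p = 0.344 for H93, and 0.0462 for a log2 difference of -0.20 without DMSO replicate 3). USE1 averaged 6.53 ± 1.27, 7.22 ± 0.703 and 6.70 ± 0.437 FPKM with H93, SAHA and DMSO (limma adjusted p = 0.711 for H93), with replicates as far apart as 7.98 and 5.63 FPKM in H93 libraries.

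**Figure D3:**
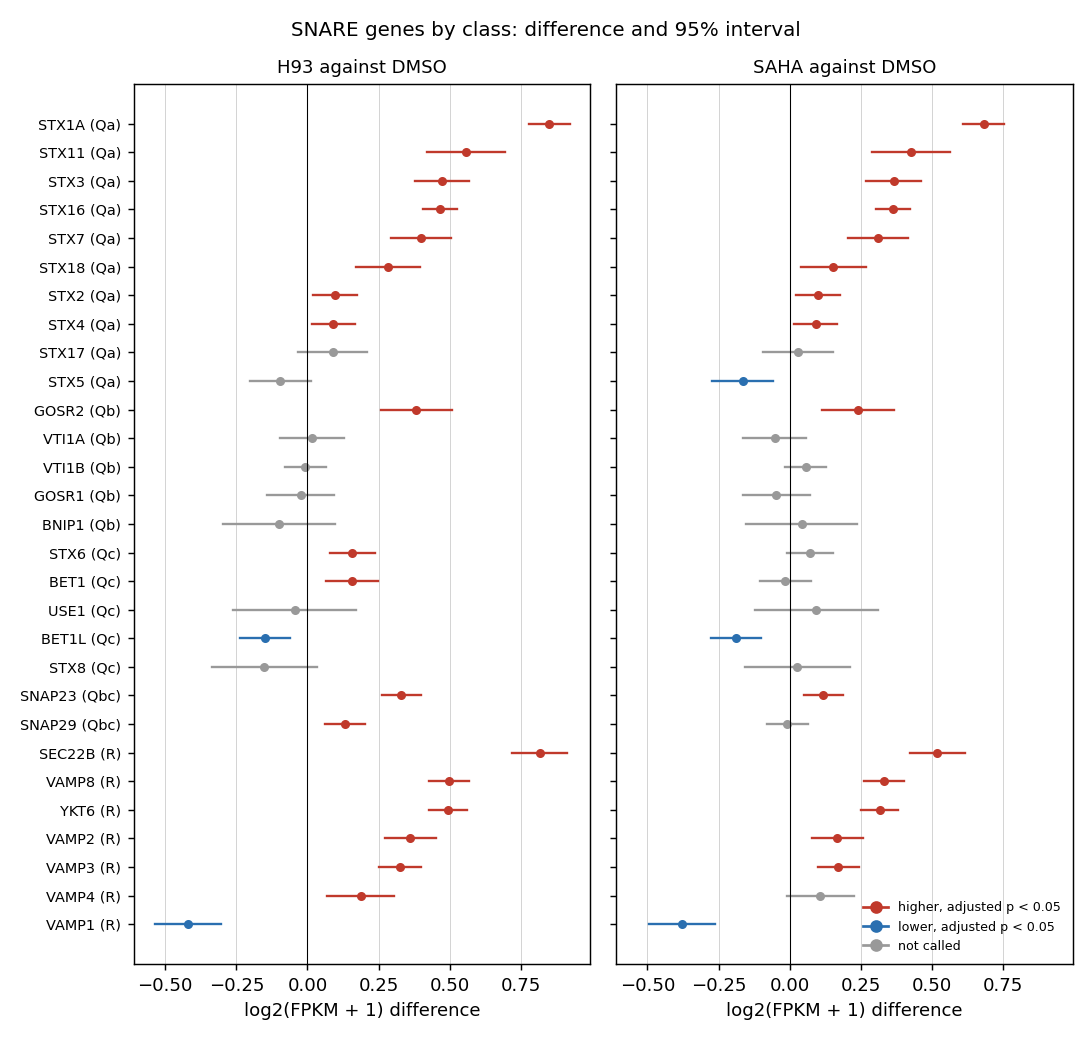
Difference on the log2(FPKM + 1) scale with its 95% interval for the 29 tested SNARE genes, H93 against DMSO on the left and SAHA against DMSO on the right, grouped by SNARE class; red and blue mark genes that rose or fell at an adjusted p under 0.05 in limma. Most Qa and R genes lie right of 0, and 4 of 5 Qb genes are not called.

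On the route between endosomes and the trans-Golgi network, STX16 (Qa) rose most. It had 42.2, 41.6 and 42.7 FPKM in H93 libraries, 39.2, 40.1 and 38.3 in SAHA libraries and 29.6, 30.3 and 30.9 in DMSO libraries, with the 3 groups apart. Its log2 difference was 0.47 with H93 (limma adjusted p = 1.65e-08) and 0.36 with SAHA (limma adjusted p = 3.14e-07). STX16 lies on chromosome 20 from 58651253 to 58679526, and 28093 of its 28274 bases overlap the model of a read-through gene that joins it to NPEPL1, so its level is uncertain. NPEPL1 itself went the other way, at 5.70 ± 0.517 FPKM with H93, 6.67 ± 0.770 with SAHA and 13.3 ± 0.374 with DMSO (SD, n = 3 each; log2 difference -1.10 and -0.90, limma adjusted p = 3.58e-08 and 4.05e-07).

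The helpers of STX16 changed less than STX16 itself. In mean FPKM, VAMP4 with H93 was 1.21 times its DMSO level, and STX16 was 1.39 times its own. STX6 (Qc) averaged 11.3 ± 0.466 FPKM with H93, 10.6 ± 0.191 with SAHA and 10.0 ± 0.0610 with DMSO (SD, n = 3 each). It rose by 0.16 with H93 (limma adjusted p = 0.00201) and did not pass with SAHA (0.07, limma adjusted p = 0.109; 0.0432 with quantile normalization). VAMP4 (R), at 2.28 ± 0.101, 2.10 ± 0.147 and 1.88 ± 0.0628 FPKM with H93, SAHA and DMSO, rose by 0.19 with H93 (limma adjusted p = 0.00854) and did not pass with SAHA (limma adjusted p = 0.108). VTI1A (Qb) stood at 3.63 ± 0.164, 3.42 ± 0.132 and 3.59 ± 0.203 FPKM with H93, SAHA and DMSO and passed in neither comparison (limma adjusted p = 0.811 and 0.397). The ratio of STX16 to VTI1A in FPKM was 11.1 to 11.9 in H93 libraries, 10.8 to 11.9 in SAHA libraries and 8.06 to 9.20 in DMSO libraries.

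In late endosomes and lysosomes STX7 (Qa) had 3.40, 3.52 and 3.43 FPKM in H93 libraries, 3.00, 3.27 and 3.31 in SAHA libraries and 2.46, 2.36 and 2.32 in DMSO libraries. It rose by 0.40 with H93 (limma adjusted p = 1.17e-05) and by 0.31 with SAHA (limma adjusted p = 0.000149), with treated and control libraries apart. Its partner VTI1B (Qb) averaged 18.4 ± 0.425 FPKM with H93, 19.3 ± 0.670 with SAHA and 18.5 ± 0.228 with DMSO (limma adjusted p = 0.845 and 0.164). Of the span of VTI1B, 15012 of 27757 bases overlap the protein-coding model AL049779.1 on the same strand, so its level is uncertain. STX8 (Qc) averaged 7.78 ± 0.657 FPKM with H93, 8.97 ± 1.16 with SAHA and 8.76 ± 0.846 with DMSO (limma adjusted p = 0.129 and 0.804). STX8 passed with H93 without DMSO replicate 3 (log2 difference -0.22, limma adjusted p = 0.0389). STX17, the Qa SNARE of autophagosomes, averaged 4.88 ± 0.114 FPKM with H93, 4.65 ± 0.442 with SAHA and 4.53 ± 0.128 with DMSO (limma adjusted p = 0.174 and 0.672). Its Qbc partner SNAP29 had 27.6, 28.9 and 28.1 FPKM in H93 libraries, 24.8, 25.9 and 25.8 in SAHA libraries and 26.3, 26.0 and 24.7 in DMSO libraries. SNAP29 rose by 0.13 with H93 (limma adjusted p = 0.00339), and its SAHA libraries overlapped the controls (-0.01, limma adjusted p = 0.843).

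By class, 8 of 10 tested Qa genes and 6 of 7 tested R genes rose with H93, and 1 R gene (VAMP1) fell, where 34.9% of all genes rose and 35.0% fell. Both Qbc genes rose. Of 5 Qb genes 1 rose (GOSR2), and of 5 Qc genes 2 rose (BET1 and STX6) and 1 fell (BET1L). With SAHA 8 Qa genes rose and 1 fell, 5 R genes rose and 1 fell, 1 of the 2 Qbc genes (SNAP23) rose, 1 Qb gene rose and 1 Qc gene fell, where 27.4% of all genes rose and 31.4% fell. The median log2 difference with H93 was 0.34 over the Qa genes, 0.36 over the R genes, -0.01 over the Qb genes and -0.04 over the Qc genes. With SAHA it was 0.23 over the Qa genes, 0.17 over the R genes, 0.04 over the Qb genes and 0.03 over the Qc genes. The difference between classes was not tested.

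The table's other pathway entries cut the family differently. Of the 5 genes also annotated to the synaptic vesicle cycle, the 4 that were tested (STX1A, STX2, STX3 and VAMP2) all rose with either compound, although the calls of STX2 were lost in several of the fits given above. The 4 genes also annotated to the phagosome were SEC22B, STX7, STX18 and VAMP3, and all 4 rose with either compound, the call of STX18 with SAHA being one that was lost in the fits given above. Of all genes 34.9% rose with H93 and 27.4% with SAHA. Of the 3 also annotated to autophagy (STX17, SNAP29 and VAMP8), 2 rose with H93 and 1 with SAHA. The 19 genes with no other pathway entry had 16 tested members, of which 7 rose and 2 fell with H93 and 4 rose and 3 fell with SAHA. Markers of neurons and neuroendocrine cells were looked at beside the synaptic genes. Of 7 in the table, CHGA, CHGB and SYN1 did not exceed 0.0515 FPKM. The list summed to 23.8 to 24.9 FPKM in H93 libraries, 24.6 to 25.3 in SAHA libraries and 18.8 to 19.8 in DMSO libraries, most of it ENO2, an enolase. ENO2 averaged 19.8 ± 0.424 FPKM with H93, 20.9 ± 0.694 with SAHA and 16.6 ± 0.396 with DMSO (SD, n = 3 each). SYT1 averaged 2.72, 2.37 and 1.22 FPKM in the same order, and both genes rose with either compound in limma. SYP, at 0.826, 0.646 and 0.475 FPKM, was not tested, and SNAP25 passed in no comparison. The part of these markers in the SNARE values was not tested.

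H93 and SAHA were also set against each other directly. The 10 SNARE genes that passed, a share of the 29 close to the 31.5% of all genes, were higher in H93 libraries, where 17.6% of all genes were higher and 13.9% lower in limma. At an unadjusted p under 0.05 in limma 14 of the 29 passed, against 42.8% of all genes, and the libraries did not overlap for 13 of the 29, against 44.4% of all genes. None differed 2-fold in limma, as did 0.0174% of all genes. The 10 genes were SEC22B, SNAP23, VAMP2, YKT6, BET1, STX1A, VAMP8, VAMP3, SNAP29 and STX16. The widest gap was that of SEC22B, at 13.2 ± 0.657 FPKM with H93 and 10.5 ± 0.267 with SAHA (SD, n = 3 each; log2 difference 0.30, 95% interval 0.20 to 0.39, limma adjusted p = 0.000534). SNAP23 followed at 21.7 ± 0.681 FPKM with H93 and 18.6 ± 0.150 with SAHA (0.21, 95% interval 0.14 to 0.28, limma adjusted p = 0.000508). VAMP2 was 0.19 higher with H93 (95% interval 0.10 to 0.28, limma adjusted p = 0.00436) and YKT6 0.18 higher (95% interval 0.11 to 0.24, limma adjusted p = 0.00126). The other 6 lay between 0.10 for STX16 (limma adjusted p = 0.0149; 0.0566 without SAHA replicate 3) and 0.17 for BET1 (limma adjusted p = 0.00878), each with H93 libraries above all SAHA libraries.

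Several genes called against DMSO did not pass between the compounds. STX7 and STX11 were among them, although their H93 libraries lay above all their SAHA libraries. For VAMP1 the difference of H93 from SAHA was -0.04 (95% interval -0.16 to 0.07, limma adjusted p = 0.565), for STX7 0.09 (-0.02 to 0.19, limma adjusted p = 0.196), for STX11 0.13 (-0.01 to 0.27, limma adjusted p = 0.130) and for STX3 0.11 (0.01 to 0.20, limma adjusted p = 0.0825). For GOSR2 it was 0.14 (0.02 to 0.27, limma adjusted p = 0.0770; 0.0264 without H93 replicate 2). These intervals are not adjusted for the number of genes. The calls of STX2 and STX4 against DMSO depended on single libraries, as given above. Their differences of H93 from SAHA were 0.00 with intervals of -0.08 to 0.08 and -0.08 to 0.07. STX18 did not pass (0.13, limma adjusted p = 0.0779) but did without SAHA replicate 3 (0.0174) and with a fixed FPKM sum per library (0.0460). USE1 was lower in H93 libraries without H93 replicate 1 (-0.27, limma adjusted p = 0.0216) and did not pass with it (-0.14, limma adjusted p = 0.318).

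**Figure D4:**
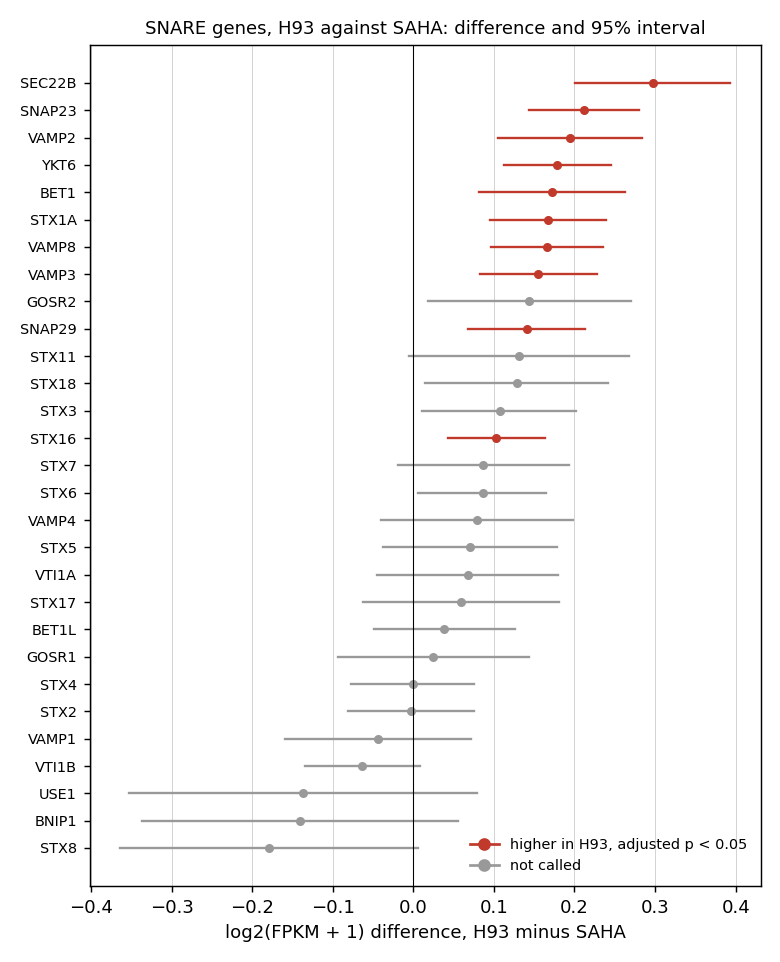
Difference of H93 minus SAHA on the log2(FPKM + 1) scale with its 95% interval for the 29 tested SNARE genes, sorted by size; red marks an adjusted p under 0.05 in limma. The 10 called genes lie between 0.10 and 0.30, and none of the 29 is called below 0.

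There were 4 SNARE genes that were not tested because of low values. STX19 was listed at 0 in all H93 libraries, in 2 of 3 SAHA libraries and in 2 of 3 DMSO libraries, with at most 0.0490 FPKM. VAMP5 ranged from 0 to 0.749 FPKM and VAMP7 from 0.129 to 0.386. VAMP7, a lysosomal R SNARE, is annotated on both the X and the Y chromosome, in a region the chromosomes share, so its level is uncertain. VAMP5 lies beside an active relative. On chromosome 2 it starts 2376 bases after VAMP8 ends, and in DMSO libraries VAMP8 had 26.2 to 28.1 FPKM and VAMP5 0 to 0.471.

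A further 5 SNARE genes stand in the table without this pathway entry. STX12, an endosomal Qa SNARE related to STX7, averaged 9.32 ± 0.450 FPKM with H93, 7.52 ± 0.412 with SAHA and 5.99 ± 0.351 with DMSO (SD, n = 3 each). STX12 rose by 0.56 with H93 (limma adjusted p = 9.52e-07) and by 0.29 with SAHA (limma adjusted p = 0.000493), and it was 0.28 higher with H93 than with SAHA (limma adjusted p = 0.00220). STX10 (28.5 to 31.8 FPKM), SNAP47 (4.73 to 5.36) and SNAP25, the neuronal Qbc SNARE (0.734 to 1.17), passed in no comparison in limma. TSNARE1 did not exceed 1.04 FPKM and was not tested.

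Genes of proteins that act on SNAREs moved in both directions. Of 66 tested genes from 8 partner lists, 26 rose and 18 fell with H93, and 14 rose and 14 fell with SAHA, where 34.9% and 27.4% of all genes rose and 35.0% and 31.4% fell. Their median log2 difference was 0.04 with H93 and 0.01 with SAHA. NSF, the ATPase that takes used SNARE complexes apart, averaged 11.4 ± 0.659 FPKM with H93, 11.2 ± 0.383 with SAHA and 10.98 ± 0.182 with DMSO (SD, n = 3 each; limma adjusted p = 0.334 and 0.556). Its adaptor NAPA (alpha-SNAP) rose with H93, at 21.7 ± 1.43 FPKM, and did not pass with SAHA, at 18.6 ± 0.442, against 17.3 ± 1.145 with DMSO (limma adjusted p = 0.000188 and 0.134). NAPG (gamma-SNAP) rose with both, at 14.7 ± 0.449 FPKM with H93, 14.2 ± 0.575 with SAHA and 12.5 ± 0.750 with DMSO (limma adjusted p = 0.000876 and 0.00611).

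Sec1/Munc18 (SM) proteins clasp syntaxins while complexes form. STXBP2 (Munc18-2), a partner of STX3 and STX11, rose by 0.29 with H93 (limma adjusted p = 1.01e-05) and by 0.24 with SAHA (limma adjusted p = 9.27e-05). VPS33A, the SM protein of the lysosomal HOPS complex, fell by 0.31 with H93 (limma adjusted p = 6.57e-05) and by 0.20 with SAHA (limma adjusted p = 0.00245). Of the 8 genes in this list 3 rose and 3 fell with H93, where 34.9% of all genes rose and 35.0% fell.

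Tethers are the long complexes that catch vesicles before SNAREs engage, and their genes also moved in both directions. With H93 34.9% of all genes rose and 35.0% fell. Of 9 exocyst genes 3 rose and 3 fell with H93, with EXOC6B at 7.62 ± 0.188 FPKM with H93, 6.76 ± 0.1997 with SAHA and 5.13 ± 0.266 with DMSO, and EXOC7 at 20.7 ± 0.400, 21.6 ± 0.366 and 28.0 ± 0.411 in the same order (SD, n = 3 each). EXOC2 fell by 0.30 with H93 (limma adjusted p = 5.74e-05). Of 17 GARP, EARP, TRAPP and ER tether genes 7 rose and 3 fell with H93, led by TRAPPC4 (log2 difference 0.51, limma adjusted p = 1.70e-07), VPS52 (-0.47, limma adjusted p = 5.72e-06) and TRAPPC1 (0.39, limma adjusted p = 2.81e-07). The called TRAPP genes (TRAPPC1, TRAPPC2, TRAPPC3, TRAPPC4 and TRAPPC5) all rose, as did VPS53 and VPS54, and those that fell were VPS51, VPS52 and NBAS. Of 7 HOPS and CORVET genes 2 rose (VPS41 and VPS18, by 0.13 and 0.10) and 1 fell (TGFBRAP1, by 0.16), and of 8 COG genes 3 rose and 2 fell, with the largest differences for COG7 (-0.25), COG5 (0.23) and COG1 (-0.20), all with H93.

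Among 8 tested calcium sensors and priming factors 5 rose and 3 fell with H93, where 34.9% of all genes rose and 35.0% fell. SYT1, the calcium sensor of synaptic vesicles, was low but rose, at 2.72 ± 0.220 FPKM with H93, 2.37 ± 0.260 with SAHA and 1.22 ± 0.0875 with DMSO (SD, n = 3 each; log2 difference 0.75 and 0.60, limma adjusted p = 9.37e-07 and 1.11e-05). DOC2A and SYTL1 fell by 0.45 and 0.43 with H93 (limma adjusted p = 7.73e-05 and 1.15e-05). Of 5 tested syntaxin-binding regulators 1 rose (STXBP5, by 0.20) and 3 fell (TXLNG by 0.17, SNAPIN by 0.15 and TXLNA by 0.11) with H93. The 6 partner genes SYT11, UNC13A, UNC13D, DOC2B, STXBP5L and STXBP6 stayed under the filter.

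**Figure D5:**
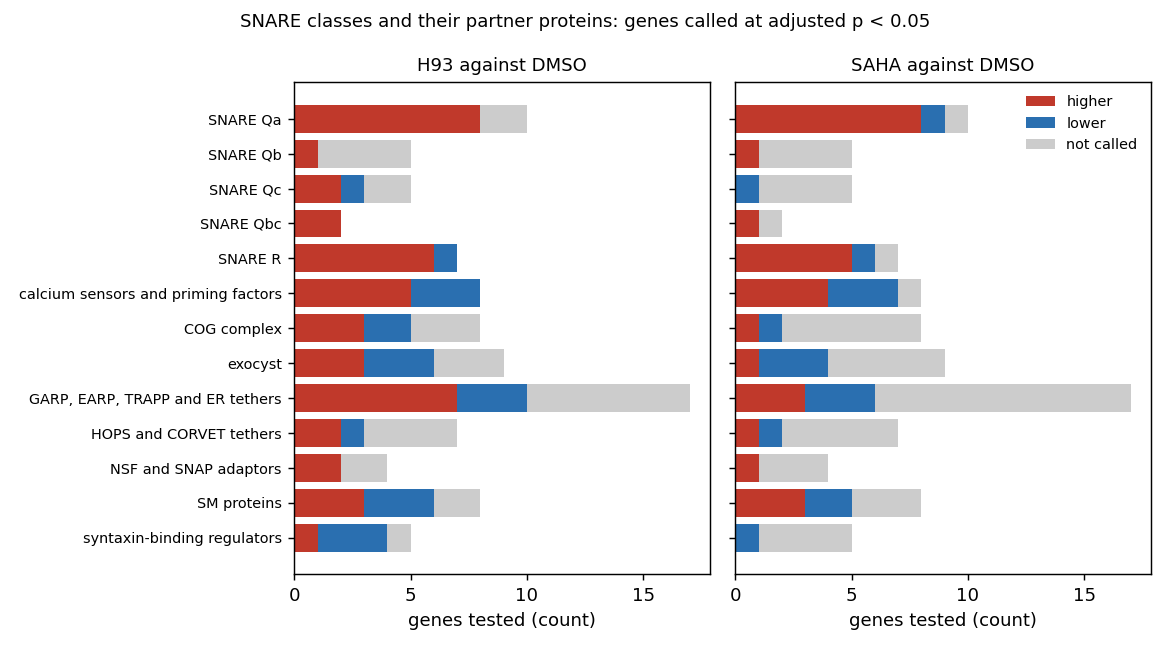
Number of tested genes that rose (red), fell (blue) or were not called (grey) at an adjusted p under 0.05 in limma, for the SNARE classes (top 5 bars) and the 8 partner lists, H93 against DMSO on the left and SAHA against DMSO on the right. Red fills most of the Qa and R bars, whereas the partner lists hold both colours or grey.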

How the data were processed

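Polyadenylated RNA of 9 DU145 libraries was sequenced after TRIzol extraction with a stranded TruSeq kit, per the labels' protocols. The authors deposited FPKM, 1 value per gene in each library, which they had scaled for transcript length and depth. Trimmomatic 0.36, HISAT2, Cufflinks and GRCh38.p13 appear in the submitters' processing notes without roles. The annotation and any use of strand in counting are not stated there. Columns were matched to samples by name.

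Members, lists, motifs and comparisons were chosen with earlier results of these data known. Genes reaching an FPKM of 1 in 3 or more of the 9 libraries were kept, and log2(FPKM + 1) was fitted for 3 groups with limma 3.58.1 in R 4.3.3 (mean-variance trend, 6 residual and 6.05 prior degrees of freedom), two-sided, with Benjamini-Hochberg adjustment over 11525 genes. With 3 libraries against 3, exact permutation cannot go below p = 0.1 and was not used. The procedure was also run on simulated data with independent noise and few changed genes, unlike the real comparisons. That run is not used as support here. Named were up to 10 called genes of largest difference per comparison, the 3 most abundant members and up to 3 genes per partner list. Other members were described by role. A few genes that this rule covers are not reported here. Alternatives covered pseudocount (0.1 and 5), filter, scaling, moderation, libraries fitted, replicate block and each library left out. Positions came from GENCODE release 29 by Entrez identifier (33 of 33) and promoters from RefSeq (29 of 33). No 2 libraries held an equal nonzero value. Proteins were not analysed here. Python 3.11.15 with pandas 2.3.3, numpy 2.4.6 and matplotlib 3.10.9 was used.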

Additional observations from a re-analysis of the deposited data

How the results depend on the processing

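Of 49 calls on SNARE genes over the 3 comparisons, 42 held in every alternative that gave them a value (STX7, STX11, VAMP1 and VAMP4 have none where a mean FPKM of at least 5 was asked) and 7 were lost in at least 1 (STX2 and STX4 for both compounds against DMSO, STX5 and STX18 for SAHA against DMSO, and STX16 for H93 against SAHA). Of 38 differences without a call, 8 gained one in at least 1 alternative. For H93 against DMSO the number of SNARE genes that rose ran from 17 to 19 over the 9 fits that each left out 1 library and from 16 to 19 over the other alternatives, and for SAHA against DMSO from 12 to 15 and from 13 to 16. The number that fell with H93 was 2, 1 when a mean FPKM of at least 5 was asked, which left 23 SNARE genes, 3 with the replicate block and 2 to 4 with 1 library left out (4 without DMSO replicate 3). The number lower with H93 than with SAHA was 0, 1 with the replicate block and 0 to 1 with 1 library left out. The median difference for SAHA against DMSO was 0.10, and 0.068 with a pseudocount of 5, which makes each log2 difference smaller by arithmetic. It was 0.113 with quantile normalization and 0.095 to 0.116 with 1 library left out, and the cause of these shifts was not tested. Partner genes called between H93 and SAHA were 15, and 7 to 13 with 1 library left out, where fewer samples entered the fit.

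Sign changes occurred for differences that passed in no such fit. Under median-ratio rescaling SNAP29 (SAHA against DMSO) was at 1e-04, and under quantile normalization at 0.0118, and VTI1A (H93 against DMSO) at -0.0146. With a fixed FPKM sum per library STX2 and STX4 (H93 against SAHA) were at 0.0104 and 0.0135. With 1 library left out the ranges were, for H93 against DMSO, -0.0697 to 0.0074 (GOSR1), -0.1774 to 0.0415 (USE1), -0.0221 to 0.0384 (VTI1A) and -0.0254 to 0.0048 (VTI1B). For SAHA against DMSO they were -0.0422 to 0.0339 (BET1), -0.0588 to 0.1039 (BNIP1), -0.0359 to 0.0115 (SNAP29), -0.0273 to 0.0854 (STX17) and -0.0644 to 0.0953 (STX8). For H93 against SAHA they were -0.0202 to 0.0728 (GOSR1), -0.0124 to 0.0122 (STX2) and -0.0159 to 0.0146 (STX4).

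The labels do not say whether replicate numbers mark a shared culture or day. Same-numbered libraries of different groups had correlated deviations of -0.098 to 0.036 over all tested genes, and differently numbered ones of -0.05 to 0.07. Such values cannot exclude a pairing that affects some genes. With the number as a block 21 SNARE genes for H93 against DMSO became 22, 18 for SAHA against DMSO became 18 and 10 for H93 against SAHA became 12; STX8 (adjusted p = 0.0255 against DMSO and 0.0296 against SAHA) and GOSR2 (0.0293 against SAHA) gained a call in limma. Absolute depth is unknown, which limits genes near an FPKM of 0.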
